A study of Mus musculus with 9 samples.

Results

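The genes for 9 secreted peptides or their precursors (Npy, Gal, Tac1, Tac2, Cck, Adcyap1, Vgf, Scg2 and Nts) and the gene for the calcium-binding protein calretinin (Calb2) were followed through the hippocampus of hAPP-J20 mice. These 10 genes, of 55536 in the deposited tables, were chosen by symbol, as genes known to respond to seizures, with earlier results from these same libraries already known. Their differences between groups are therefore given as descriptions, and no p-value adjusted over these genes alone was computed. All 10 passed the filter on low counts (edgeR's filterByExpr), including Gal, whose count was as low as 3 reads in a library.

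RNA sequencing measured whole hippocampus in 9 libraries. The hAPP-J20 mice (Tg) carry a mutant human amyloid precursor protein transgene driven by the PDGF-B promoter, which is active mainly in neurons, and the study set 15 weeks, before amyloid plaques, against 24 weeks, after them. There were 3 Tg libraries at 24 weeks, 3 Tg libraries at 15 weeks, and 3 libraries of non-transgenic mice (nTg), of which 2 were from 24 weeks and 1 was from 15 weeks. Libraries are named by genotype, age and replicate (Tg_24w_3), and the nTg libraries of both ages were pooled as 1 group. Total counts lay between 12733452 and 21529266, so that 1 CPM (counts scaled to a common library size) stood for 12.73 to 21.53 counts. Each age was its own batch by the labels, and these cannot be told apart. The labels name biological replicates without saying that each is a separate animal; p-values thus reflect only library-to-library spread, part of which may be technical.

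Neuropeptides are cut from larger precursors inside dense-core vesicles, released when neurons fire at high rates, and act on G protein-coupled receptors. In the hippocampus many are made by subsets of GABAergic interneurons, and seizures are known to change them: Npy, an inhibitor of glutamate release, appears in granule cells and their mossy fibres, whereas calbindin is lost from granule cells. The hAPP-J20 line is known for epileptiform activity. Calretinin marks a group of interneurons, hilar mossy cells in mice and immature granule cells.

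At 24 weeks the 3 genes with the clearest separation from nTg were Gal, Tac2 and Calb2, each higher in every Tg_24w library than in every nTg library, as were 9.72% of all 17457 genes tested. Gal was 9.34-fold, Tac2 2.0-fold and Calb2 1.46-fold higher in the group fit, and none passed the threshold of 0.05 (edgeR adjusted p of 0.158, 0.169 and 0.18). The log2 difference of Gal, 3.22, was 1.99 without Tg_24w_3. Npy was 1.56-fold higher, but 1 library, Tg_24w_3, carried that difference. Scg2, Tac1 and Nts differed from nTg by at most 0.10 on the log2 scale. At 15 weeks 4 of the 10 genes stood lower than in nTg and 6 higher, and none of them passed the threshold.

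Promoter sequence is shown for 4 genes, because cyclic AMP response elements (CRE) and AP-1 sites are the motifs through which neuronal activity is best known to act on peptide genes. Windows are the 250 bases before the start site in RefSeq, build GRCm38.p6, written 5′ to 3′ on the strand of the gene. The table held 8 of the 10 genes, not Vgf or Calb2. Motifs were searched on both strands: the full CRE TGACGTCA, the short site TGACG, which lies within the full CRE, and AP-1 as TGANTCA. Scg2 is shown for its full CRE, Nts for its AP-1 match and a short site, and Gal and Tac2 as the peptide genes with the largest differences at 24 weeks; capitals mark matches.
Scg2 (chr1:79440027-79440276, minus strand): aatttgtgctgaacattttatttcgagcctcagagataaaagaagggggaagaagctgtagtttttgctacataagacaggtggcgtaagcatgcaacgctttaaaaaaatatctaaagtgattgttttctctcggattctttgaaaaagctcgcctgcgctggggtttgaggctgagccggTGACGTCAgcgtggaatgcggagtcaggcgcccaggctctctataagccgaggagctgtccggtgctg
Nts (chr10:102490419-102490668, minus strand): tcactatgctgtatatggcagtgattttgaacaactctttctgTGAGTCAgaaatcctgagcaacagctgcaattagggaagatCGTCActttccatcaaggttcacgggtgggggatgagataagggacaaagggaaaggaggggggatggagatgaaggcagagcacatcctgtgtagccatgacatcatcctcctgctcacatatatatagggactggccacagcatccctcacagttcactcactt
Gal (chr19:3414545-3414794, minus strand): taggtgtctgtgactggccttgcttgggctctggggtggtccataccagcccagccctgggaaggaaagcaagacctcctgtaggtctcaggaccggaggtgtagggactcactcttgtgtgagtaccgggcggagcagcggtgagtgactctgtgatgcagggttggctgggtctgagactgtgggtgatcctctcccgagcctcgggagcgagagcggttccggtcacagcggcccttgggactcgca
Tac2 (chr10:127724228-127724477, plus strand): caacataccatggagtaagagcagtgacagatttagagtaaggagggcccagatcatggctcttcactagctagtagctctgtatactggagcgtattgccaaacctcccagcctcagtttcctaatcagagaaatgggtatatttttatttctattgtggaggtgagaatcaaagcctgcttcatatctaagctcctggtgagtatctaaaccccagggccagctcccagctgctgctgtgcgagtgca
The full CRE began 68 bases before the start of Scg2, and 1 of the 8 matched genes held one, against 1.77% of 27025 genes with RefSeq promoter windows of the same length. The AP-1 match began 207 bases before the start of Nts, and 1 of 8 genes held one, against 7.82% of those genes. The short site stood in 5 of the 8 genes (Tac1, Cck, Adcyap1, Scg2 and Nts), against 19.8% of those genes. The windows of Gal, Tac2 and Npy held none of these letters, which says nothing about other stretches of those genes.

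Levels between genes were compared on the deposited TPM scale, which divides by transcript length. Cck, the cholecystokinin precursor of a class of basket cells and of some pyramidal cells, was highest with a mean of 643 TPM over the 9 libraries. Npy followed at 297, Scg2 (secretogranin II) at 206, Vgf at 132 and Calb2 at 54.0 TPM. Nts (neurotensin) stood at 19.2, Tac2 at 8.59, Tac1 at 6.25, Adcyap1 at 5.16 and Gal at 3.35 TPM. From Cck down to Tac2 each gene was above the next in 9 of 9 libraries. Tac2 and Tac1, Tac1 and Adcyap1, and Adcyap1 and Gal each kept that order in 8 of 9 libraries, so these last neighbours were not fully separated.

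**Figure D1:**
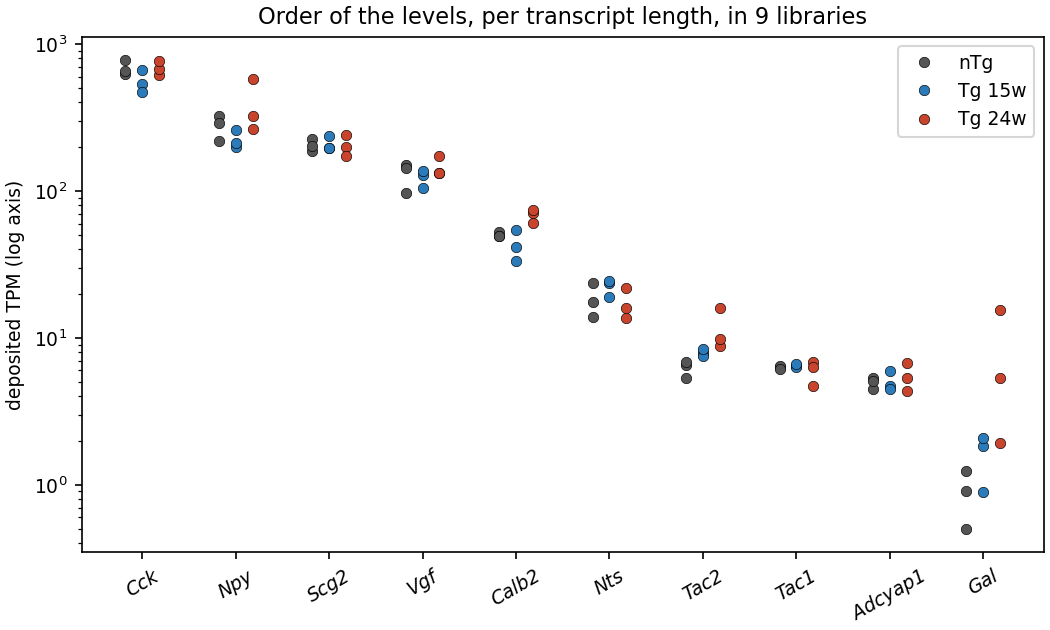
Deposited TPM (log axis) of the 10 genes in each of the 9 libraries, coloured by group and ordered by the mean. Cck lies highest with a mean of 643 TPM and Gal lowest with 3.35 TPM, and the Gal values of Tg at 24 weeks spread from 1.93 to 15.4 TPM.

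Gal encodes the precursor of galanin, a peptide that dampens neuronal firing and is abundant in locus coeruleus and hypothalamus; the gene lies at chr19:3409915-3414544 on the minus strand (GRCm38, as are the positions that follow). It stood at 0.708, 1.88 and 6.75 TMM-normalised CPM in Tg_24w replicates 1, 2 and 3, from 14, 36 and 83 reads. Tg_15w libraries gave 0.344, 0.688 and 0.677 CPM, from 6, 13 and 15 reads. For nTg_24w_1, nTg_15w_2 and nTg_24w_3 the values were 0.308, 0.447 and 0.184 CPM, from 5, 9 and 3 reads. Each Tg_24w library lay above all others, but Tg_24w_1 only narrowly so over Tg_15w_2, and on the TPM scale Tg_24w_1 (1.93) lay below Tg_15w_3 (2.09). Exact Poisson intervals at 95%, which cover counting error only, ran from 0.0379 to 0.537 CPM in nTg_24w_3 and from 0.387 to 1.19 CPM in Tg_24w_1, and so overlapped. The interval of Tg_24w_3 ran from 5.38 to 8.37 CPM. The log2 difference of Gal from nTg was 3.22 ± 0.75 (SE) at 24 weeks, with an edgeR adjusted p of 0.158, and 0.84 ± 0.81 at 15 weeks. Without Tg_24w_3 the 24-week difference was 1.99.

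The summed level of hypothalamic markers, a region rich in galanin, was 17.1 to 28.7 TPM in Tg at 24 weeks, 7.81 to 15.5 TPM in Tg at 15 weeks and 9.89 to 10.9 TPM in nTg. Within groups its full order was not that of Gal in TPM. In Tg_24w the sum was highest in Tg_24w_2 (28.7 TPM, against 22.5 in Tg_24w_3), and Gal was highest in Tg_24w_3 (15.4 TPM, against 5.34 in Tg_24w_2). In Tg_15w both were highest in Tg_15w_3 (15.5 TPM for the sum, 2.09 for Gal). The lowest sum, 7.81 TPM, was in Tg_15w_2, where Gal was 1.83 TPM. Of 17 markers found, 5 were tested, and 4 of these were higher in Tg_24w than in nTg, none past the threshold. The mean log2 CPM of these 5 was 1.1, 1.25 and 1.66 in Tg_24w replicates 1, 2 and 3, the order of Gal there. It was 0.37, -0.14 and 0.65 in Tg_15w replicates 1, 2 and 3, which is not the order of Gal. Nor did it follow Gal in nTg_24w_1, nTg_15w_2 and nTg_24w_3, at 0.26, 0.25 and 0.49. Pomc, the precursor of melanocortins, differed by 1.67, Avp (vasopressin) by 2.04 and Trh (thyrotropin-releasing hormone) by 1.82 on the log2 scale, with edgeR adjusted p of 0.139, 0.191 and 0.29. The defining peptides Hcrt and Oxt had at most 5 and 7 reads in a library, and Pmch had 35 reads in Tg_24w_2 and at most 8 elsewhere. No marker was at 0 in every library. The part of these markers in the Gal difference was not tested.

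The 2 tachykinin precursor genes differed from one another. Tac2 (chr10:127724478-127731768, plus strand), which encodes neurokinin B, stood at 10.3, 5.44 and 7.57 CPM in Tg_24w replicates 1, 2 and 3. The Tg_15w libraries held 5.33, 4.97 and 4.74 CPM, and nTg_24w_1, nTg_15w_2 and nTg_24w_3 held 3.88, 4.32 and 3.43 CPM. The 3 groups did not overlap, with Tg_15w between nTg and Tg_24w, although Tg_24w_2 (5.44) lay close to Tg_15w_1 (5.33). The log2 difference of Tac2 from nTg was 1.0 ± 0.24 at 24 weeks (edgeR adjusted p = 0.169) and 0.37 ± 0.24 at 15 weeks (adjusted p = 1). Leaving out Tg_24w_1, the highest library, gave 0.71, and leaving out Tg_24w_3 gave 1.01. Against Tg at 15 weeks the difference was 0.63 ± 0.23, and 0.34 without Tg_24w_1. Tac1, which encodes substance P and neurokinin A, stood at 7.48, 10.4 and 12 CPM in Tg_24w, a range that held all the other 6 libraries (9.26 to 10.7 CPM). Its log2 difference from nTg at 24 weeks was 0.03 ± 0.19.

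Calb2 had, of the 10 genes, the smallest SD relative to its mean within Tg_24w (58.0 ± 0.966 CPM, n = 3). The gene lies at chr8:110137502-110168210 on the minus strand. Its values in Tg_24w were 57.1, 57.9 and 59.0 CPM, against 39.9, 39.1 and 40.1 CPM in nTg_24w_1, nTg_15w_2 and nTg_24w_3. Tg at 15 weeks stood at 28.4, 34.2 and 39.1 CPM. The Tg_24w libraries lay far above both other groups, whereas the highest Tg_15w library met the lowest nTg library at 39.1 CPM. The log2 difference from nTg was 0.55 ± 0.13 at 24 weeks (edgeR adjusted p = 0.18), and leaving out any single library kept it between 0.51 and 0.55. Tg at 24 weeks exceeded Tg at 15 weeks by 0.77 ± 0.13 (edgeR adjusted p = 0.109), the 12th smallest p among 17457 genes, and by 0.63 to 0.89 when 1 library was left out. On the TPM scale Calb2 stood at 60.9 to 74.2 in Tg_24w, 33.2 to 54.6 in Tg_15w and 49.2 to 52.8 in nTg. There Tg_24w_3 was the lowest of its group and Tg_15w overlapped nTg. Of cell types that make calretinin, GABAergic interneuron markers had a median log2 difference of -0.03 (24 genes tested, 0 called) and hilar mossy cell markers -0.02 (12 tested, 0 called) in Tg_24w against nTg, beside 0.03 over all genes. Markers of immature granule cells were not analysed here. In bulk tissue, a change in the number of cells of a type and a change in RNA per cell cannot be told apart.

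**Figure D2:**
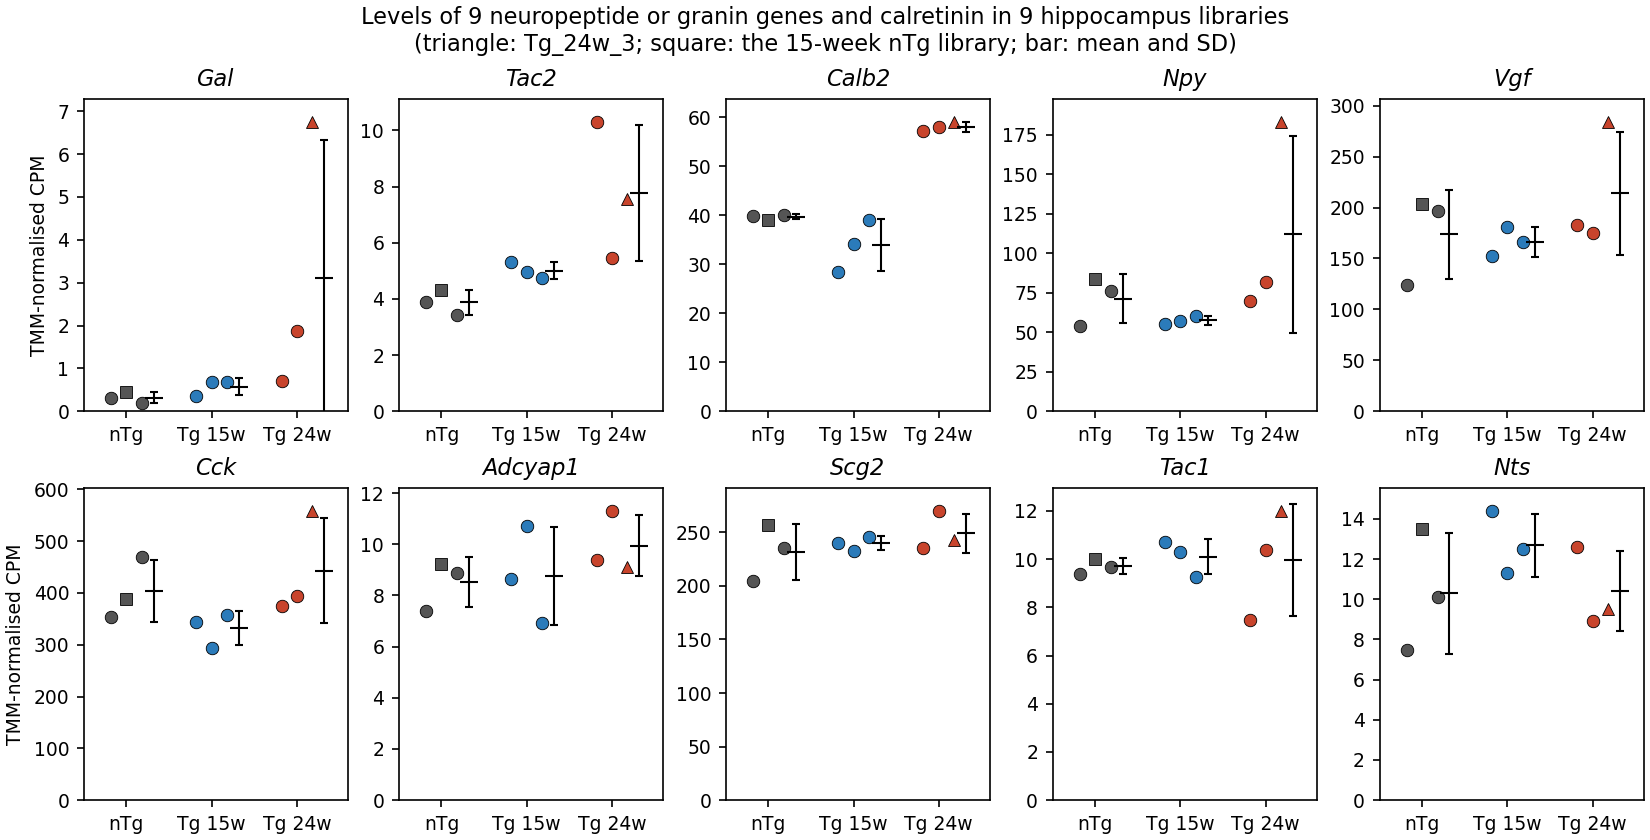
TMM-normalised CPM of each gene in the 9 libraries by group, with the mean and SD beside the points; the triangle is Tg_24w_3 and the square the 15-week nTg library. Calb2 in Tg at 24 weeks (57.1 to 59.0 CPM) lies above all other libraries, whereas Npy and Gal are led by Tg_24w_3, at 183 and 6.75 CPM.

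Npy (neuropeptide Y, chr6:49822710-49829507, plus strand) stood at 69.6, 81.9 and 183 CPM in Tg_24w replicates 1, 2 and 3. Values were 55.2, 56.9 and 60.2 CPM for Tg_15w and 54.1, 83.9 and 75.9 CPM in nTg_24w_1, nTg_15w_2 and nTg_24w_3. Replicates 1 and 2 of Tg_24w lay within the nTg range, and all 3 Tg_24w libraries lay above Tg_15w. The log2 difference of Npy from nTg at 24 weeks was 0.64 ± 0.30 (edgeR adjusted p = 0.384). It was 0.08 without Tg_24w_3 and -0.09 without both Tg_24w_3 and nTg_24w_1, an alternative chosen after seeing the data. Against Tg at 15 weeks it was 0.95 ± 0.30 (adjusted p = 0.223), and 0.39 without Tg_24w_3. At 15 weeks Npy differed from nTg by -0.31 ± 0.30.

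Tg_24w_3 stood apart from the other libraries as a whole. It lay at 84.6 on the first principal component of log2 CPM, which held 37.1% of the variance, against -30.9 to 4.9 for the others. It had the fewest counts, and 29.4% of all genes tested, and 6 of the 10 members (Npy, Gal, Tac1, Cck, Calb2 and Vgf), were highest there. Protein-coding genes whose longest transcript is under 1000 bases stood 0.58 higher there on the log2 scale, as a median, than in the other libraries, whereas the median of those of 3000 bases or more was -0.14. Protein-coding genes with a GC content of 55% or more stood 0.25 higher there, and those of them under 1000 bases 0.82 higher. The shift by GC content was not limited to that library. The GC-rich genes stood 0.16 and 0.09 higher in Tg_24w_1 and Tg_24w_2, and the short ones among them 0.13 and 0.17 higher. The 2 medians ran from -0.15 to 0.02 and from -0.34 to -0.02 in Tg_15w. In nTg they ran from -0.05 to 0.03 and from -0.17 to 0.16. The longest transcripts of Npy, Gal, Cck and Tac2 measure 566, 788, 799 and 852 bases, with GC contents of 53.7%, 55.5%, 56.9% and 53.2%. In Tg_24w_3 these 4 genes stood 1.5, 3.37, 0.61 and 0.63 above the median of the other libraries on the log2 scale. Tac2 was not highest there. The longest transcripts of Calb2, Tac1 and Vgf, which were highest there, measure 1431, 1975 and 2834 bases, with GC contents of 53.5%, 42.8% and 64.1%. Their log2 values stood 0.58, 0.29 and 0.67 higher there, and those of Adcyap1, Scg2 and Nts differed by 0.01, 0.03 and -0.31. Npy was 2.18-fold and Gal 3.59-fold above the next highest library, a ratio that 1.95% and 0.309% of genes reached. Blood markers summed to 1840 TPM in Tg_24w_3 and 398 to 1160 TPM elsewhere. Sex is not in the labels. Xist, expressed in females, stood at 83.1 CPM in Tg_24w_3 with the Y-linked Ddx3y at 0, a pattern shared by Tg_15w_1, Tg_15w_3 and nTg_24w_3 (Xist at 114, 48.5 and 65.3 CPM) but not by Tg_24w_1 and Tg_24w_2 (0.101 and 0.0523 CPM). nTg_24w_1 held both Xist (7.34 CPM) and Ddx3y (39.0 CPM). The part of these properties in the members' values was not tested.

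**Figure D3:**
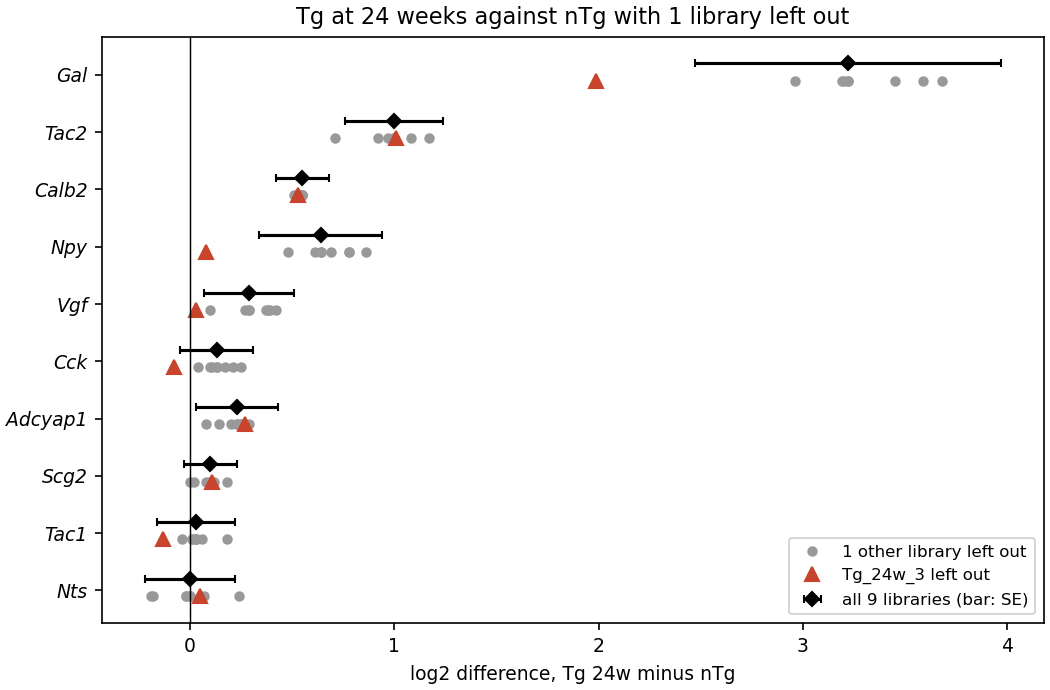
Log2 difference between Tg at 24 weeks and nTg for each gene with all 9 libraries (diamond, bar SE) and with 1 library left out (grey points; triangle, without Tg_24w_3). Npy moves from 0.64 to 0.08 and Gal from 3.22 to 1.99 without Tg_24w_3, while Calb2 stays between 0.51 and 0.55.

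Vgf, a precursor of peptides induced by neurotrophins and activity, stood at 183, 175 and 284 CPM in Tg_24w and 152, 181 and 166 CPM in Tg_15w. For nTg_24w_1, nTg_15w_2 and nTg_24w_3 the values were 124, 203 and 197 CPM. The groups overlapped, and the highest value was again that of Tg_24w_3. Its log2 difference from nTg at 24 weeks was 0.29 ± 0.22, and 0.03 without Tg_24w_3. Cck stood at 375, 394 and 558 CPM in Tg_24w, 343, 294 and 358 CPM in Tg_15w, and 353, 388 and 470 CPM in nTg. Its Tg_24w libraries lay above those of Tg_15w in CPM but not in TPM (616 against 667 for the nearest pair). The log2 difference of Cck from nTg was 0.13 ± 0.18 at 24 weeks and -0.28 ± 0.18 at 15 weeks.

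Adcyap1 encodes PACAP, which raises cyclic AMP in target neurons. It ranged from 9.11 to 11.3 CPM in Tg_24w, 6.91 to 10.7 in Tg_15w and 7.40 to 9.24 in nTg, with a log2 difference from nTg of 0.23 ± 0.20 at 24 weeks. Scg2, a granin of dense-core vesicles and the precursor of secretoneurin, ranged from 235 to 270 CPM in Tg_24w, 233 to 246 in Tg_15w and 205 to 257 in nTg. Nts ranged from 8.94 to 12.6 CPM in Tg_24w, 11.3 to 14.4 in Tg_15w and 7.46 to 13.5 in nTg. All groups overlapped for these 3 genes. The log2 differences from nTg at 24 weeks were 0.10 ± 0.13 for Scg2 and 0.00 ± 0.22 for Nts.

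In the edgeR fit over all genes, 0 of the 10 members passed an adjusted p of 0.05 in Tg_24w against nTg, where 0.132% of 17457 genes did. The count was 0 in Tg_15w against nTg, where 0% of genes did, and 0 in Tg_24w against Tg_15w, where 0.0344% did. At an unadjusted p under 0.05 the members numbered 3 at 24 weeks (13.0% of all genes), 0 at 15 weeks (3.29%) and 5 between the ages (15.2%). All 10 members had a difference of 0 or above from nTg at 24 weeks, with a median of 0.26, where 53.3% of all genes were higher. Without Tg_24w_3 that median was 0.1 and 2 members (Tac1 and Cck) were below 0, without nTg_24w_1 it was 0.12, without both -0.03, and with voom it was 0.02 with 4 members below 0. At 15 weeks the median was 0.04 and between the Tg ages it was 0.39. DESeq2 called 3 members at 24 weeks (Gal, Tac2 and Calb2; 1.25% of genes) and Calb2 between the ages (1.63%), and left the adjusted p of Gal between the ages undefined. The limma voom fit with quality weights called Calb2 at 24 weeks (1.36%) and between the ages (1.75%). Without the filter on low counts edgeR called Npy, Gal and Tac2 at 24 weeks (1.6%) and Npy, Gal and Calb2 between the ages (2.01%). Without both Tg_24w_3 and nTg_24w_1 edgeR called Calb2 between the ages (0.401%).

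**Figure D4:**
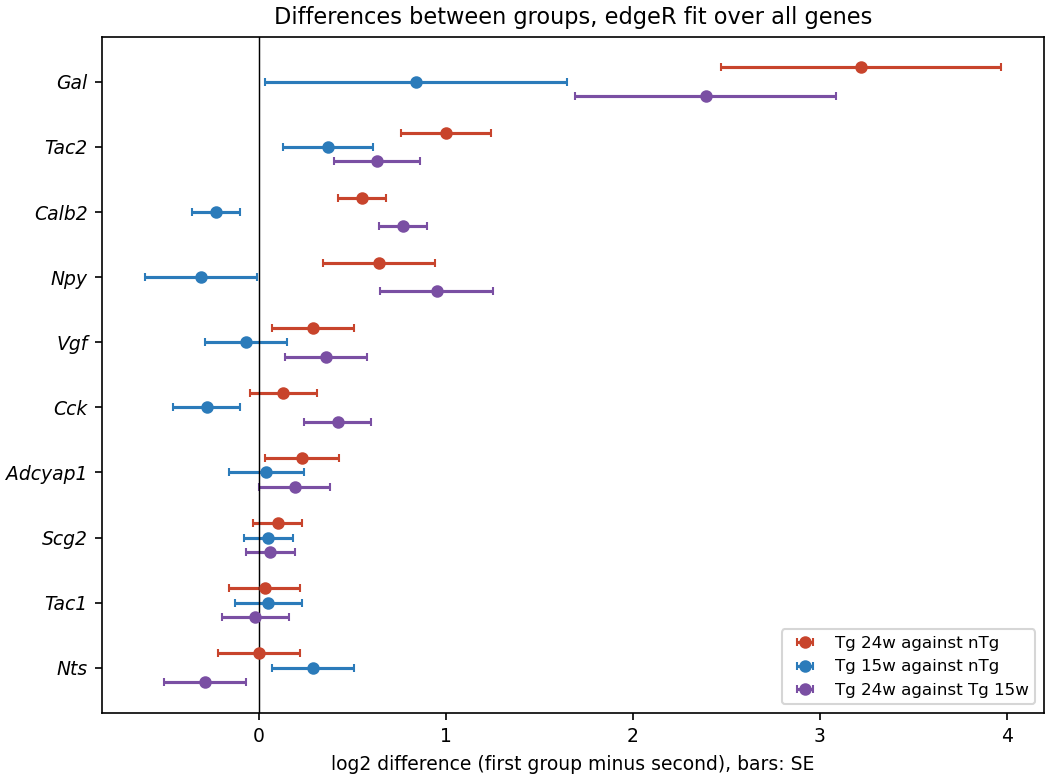
Log2 differences of the 10 genes (points) with SE (bars) in the 3 comparisons of the edgeR fit. Gal is farthest from 0 at 24 weeks (3.22), and Calb2 and Npy lie above 0 at 24 weeks (0.55 and 0.64) and below 0 at 15 weeks (-0.23 and -0.31).

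By overlap, 3 members had every Tg_24w library above every nTg library (Gal, Tac2 and Calb2), as had 9.72% of all genes, and 0 had every one below, as had 7.14%. Without Tg_24w_3 Adcyap1 joined these 3, where the share of all genes was 15.6%. Between the Tg ages 5 members did not overlap and were higher at 24 weeks (Npy, Gal, Tac2, Cck and Calb2; 10.6% of genes), and 0 were lower (10.2%). Leaving out Tg_24w_3 could not remove any of these 5 by this rule, and no other member joined them (17.1% of genes). At 15 weeks Tac2 lay above all nTg libraries (4.85%) and Calb2 below them (5.69%), in the latter case by under 0.01 CPM. The comparisons share libraries, so their values are not independent of one another.

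In the fit with 4 groups, which sets each age's Tg libraries against nTg of the same age and batch, the 24-week (3 Tg against 2 nTg) log2 difference was 3.58 ± 0.93 for Gal, 1.08 ± 0.28 for Tac2, 0.77 ± 0.33 for Npy and 0.53 ± 0.17 for Calb2. At 15 weeks, against 1 nTg library, it was 0.35 ± 1.09 for Gal, 0.21 ± 0.35 for Tac2, -0.55 ± 0.40 for Npy and -0.21 ± 0.21 for Calb2. The interaction of genotype and age was 0.74 ± 0.27 for Calb2 and 1.32 ± 0.52 for Npy, each with an edgeR adjusted p of 1 over 19574 genes.

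Among other neuropeptide precursors, 2 of 13 tested genes passed the threshold at 24 weeks, 1 in each direction. Penk, the proenkephalin precursor of opioid peptides, stood at 110, 107 and 170 CPM in Tg_24w, 24.6, 21.9 and 29.3 CPM in Tg_15w and 20.4, 27.3 and 24.7 CPM in nTg. It rose by 2.41 ± 0.20 on the log2 scale against nTg (edgeR adjusted p = 0.000386) and kept its call in 18 of 18 alternatives, where the adjusted p ran from 2.67e-37 to 0.00698. Of 13 tested markers of striatum and amygdala, where Penk is abundant, Drd1 (a dopamine receptor) rose past the threshold in the same comparison, by 1.54 ± 0.20 (adjusted p = 0.0121), in 13 of 18 alternatives. Drd1 lost the call without nTg_15w_2 (0.0928), without nTg_24w_3 (0.0514) and in the limma fits on TPM (0.119). The call was also lost in the fit with 4 groups, where the difference was 1.41. The list had a median of 0.24 and a summed level of 112 to 184 TPM in Tg_24w, highest in Tg_24w_3, and 107 to 132 TPM in nTg; its part in the Penk difference was not tested. Pdyn, the prodynorphin precursor found in granule cells, stood at 6.62, 5.75 and 5.86 CPM in Tg_24w, 13.0, 11.3 and 10.4 CPM in Tg_15w and 12.8, 16.1 and 17.5 CPM in nTg. It fell by 1.35 ± 0.17 against nTg (adjusted p = 0.0124) and kept its call in 15 of 18 alternatives. The call was lost without nTg_15w_2 (adjusted p = 0.0928), without nTg_24w_3 (0.0514) and within the 24-week libraries. Cort (cortistatin) had the next smallest p, with a difference of -1.01 and an adjusted p of 0.146.

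Of 19 peptide receptors 12 were tested and 0 passed in Tg_24w against nTg, 6 higher and 6 lower. The smallest p-values belonged to Npy5r (-0.56), a receptor of neuropeptide Y, Vipr1 (-0.37), a receptor of VIP and PACAP, and Tacr1 (0.55), the substance P receptor, with edgeR adjusted p of 0.362, 0.397 and 0.405. The galanin receptors Galr1, Galr2 and Galr3 had at most 11, 10 and 6 reads in a library and were not tested. Of 16 granins and genes of dense-core vesicle machinery 0 passed. Chga (chromogranin A) differed by 0.73 (adjusted p = 0.317), with its highest value, 269 CPM, in Tg_24w_3. Cadps2 and Pcsk1, which act in vesicle priming and precursor cleavage, each differed by -0.26.

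Of 14 other calcium-binding EF-hand genes 0 passed at 24 weeks. Necab3 came nearest, at 35, 33.7 and 38.0 CPM in Tg_24w against 13.1, 15.7 and 20.7 CPM in nTg, a difference of 1.11 ± 0.19 (edgeR adjusted p = 0.0524). Scgn (secretagogin) differed by -1.50 and S100b by 0.61 (highest, at 341 CPM, in Tg_24w_3), with adjusted p of 0.26 and 0.335. Calb1, which encodes the calbindin of granule cells, stood at 113, 99.3 and 143 CPM in Tg_24w and 126, 161 and 147 CPM in nTg, a difference of -0.29 (adjusted p = 0.484).

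Activity-regulated genes are switched on in neurons by firing. Of 25 tested, 5 fell past the threshold at 24 weeks and 0 rose: Fos, Arc, Nr4a1, Egr1 and Dusp6. The median of the list was -0.34, and at 15 weeks it was -0.35, with 19 of 25 genes lower, where 50.0% of all genes were higher. Of these 19, 10 had an unadjusted edgeR p under 0.05, as had 3.29% of all genes in either direction, and 0 passed the adjusted threshold. Fos, a subunit of the AP-1 factor, stood at 3.13, 2.88 and 3.01 CPM in Tg_24w, 7.28, 3.86 and 7.63 CPM in Tg_15w and 17.5, 16.5 and 11.8 CPM in nTg, a fall by 2.34 ± 0.26 (edgeR adjusted p = 0.00455) that was called in 18 of 18 alternatives. Arc, Nr4a1, Egr1 and Dusp6 were called in 9, 10, 6 and 6 of 18 alternatives. The count of 5 stayed at 5 without Tg_24w_3 and was 1 to 3 without any other single library. Dentate granule cell markers had a median of -0.51, and Dsp (-2.10) and Tdo2 (-1.93) of 15 tested fell past the threshold, in 18 and 13 of 18 alternatives. Of the 15 markers 10 were lower and 5 higher, where 53.3% of all genes were higher. An unadjusted edgeR p under 0.05 was found for 11, 3 of them higher, against 13.0% of all genes. Their summed level overlapped, at 255 to 410 TPM in Tg_24w and 351 to 397 TPM in nTg. In Tg_15w against nTg edgeR called 0 genes of these lists. In Tg_24w against Tg_15w Penk (2.34 ± 0.20, adjusted p = 0.000848) and Dsp (-1.62 ± 0.18, adjusted p = 0.00644) were called. Penk was called there in 17 of 17 alternatives and Dsp in 13 of 17. Dsp lost its call without Tg_15w_1 (0.0532), without Tg_15w_3 (0.0563) and in the limma fits on TPM (0.111 and 0.115).

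**Figure D5:**
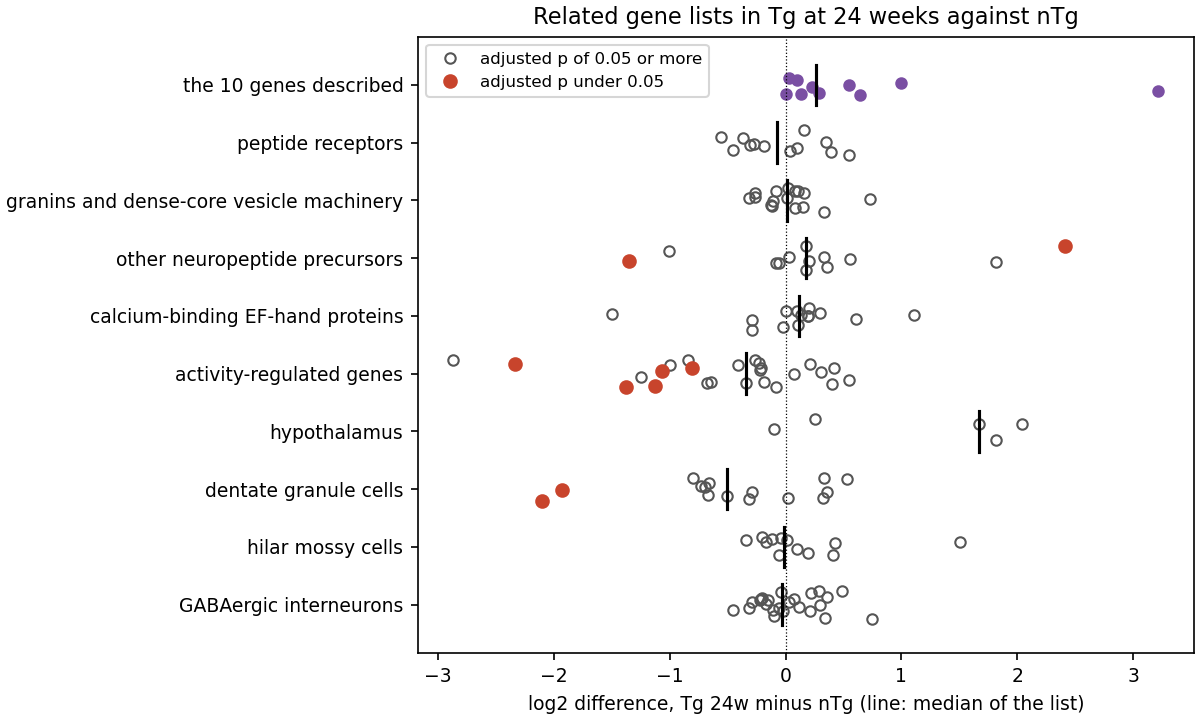
Log2 differences between Tg at 24 weeks and nTg of the 10 genes (purple) and of genes in related lists (open, not past the threshold; red, adjusted p under 0.05), with the median of each list as a line. Penk at 2.41 is the called gene farthest to the right, and the 5 called activity-regulated genes lie to the left of 0.

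The genes whose log2 CPM followed each member most closely over the 9 libraries were found by Pearson's r. The search covered 11102 genes of at least 5 CPM on average (11103 for Gal). For Calb2 they were Retreg2 (r = 0.985) and Aldoa (0.975), and these were nearly as close without Tg_24w_3 (0.981 and 0.968). Aldoa, the glycolytic aldolase A, stood at 2370 to 2500 CPM in Tg_24w and 1820 to 2070 in nTg. For Npy they were Srrm3 (0.98) and Asphd1 (0.973), for Gal Mmd (0.978) and Csnk1e (0.978), and for Cck S100a1 (0.978) and Ssna1 (0.97). For Npy the values without Tg_24w_3 were 0.905 and 0.859. For Tac2 they were Zfp775 (0.929) and Blnk (0.927), for Tac1 Cntnap5c (0.923) and Fam171b (0.866), and for Nts Spock3 (0.967). Vgf was closest to Setd4 (0.957) and Scg2 to Trappc1 (0.912). The points share libraries, depth and composition, and these values are descriptions. The genes were picked as the closest of many over few libraries. Values without Tg_24w_3 use 8 of the 9 libraries that picked them, so they are no separate check.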

How the data were processed

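Per the labels' protocols, hippocampal RNA went into libraries made with an mRNA kit (KAPA mRNA HyperPrep). The authors deposited whole-number counts per gene, not normalized, and TPM computed by them; deposited FPKM was left aside. Build GRCm38 and, with no settings, featureCounts 2.0.0, HISAT2 2.1.0, Trimmomatic 0.38, DESeq2 1.26.0 and CASAVA stand in the submitters' processing notes. For strand and annotation release: not given in the sources used here; all 55536 identifiers matched GENCODE M21, in which no other gene overlaps the members. Genes without a symbol held 1.88% of counts. The human transgene has no row of its own, so genotype labels were not checked by it.

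Counts were tested in R 4.3.3 with edgeR 4.0.16 (TMM, filterByExpr with a minimum count of 10, glmQLFTest, two-sided, Benjamini-Hochberg over all genes tested, threshold 0.05) in 1 fit with 3 groups (Tg_24w, Tg_15w, nTg), tested on simulated data. SE is the absolute log2 difference over the square root of F. A fit with 4 groups gave within-batch values. Alternatives were RLE factors, DESeq2 1.42.0, limma 3.58.1 (voom, and log2(TPM + 0.5 or 0.1)), no filter, a replicate block and leaving out libraries. The members, the related lists and the tests were chosen with earlier results of these data known. All members were named; of each related list, the genes past the threshold and the 3 of smallest p in Tg_24w against nTg; and up to 2 genes most like each member, some of which are not reported here.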

Additional observations from a re-analysis of the deposited data

Results flagged for a closer look

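Calb2 lay on opposite sides of nTg at the 2 ages, with neither difference past the threshold (0.55 ± 0.13 at 24 weeks, edgeR adjusted p = 0.18, and -0.23 ± 0.13 at 15 weeks, adjusted p = 1): every Tg_24w library lay above every nTg library and every Tg_15w library below them, and the log2 difference between the Tg ages was 0.77 ± 0.13 (edgeR adjusted p = 0.109). The interaction of genotype and age rests on 1 nTg library at 15 weeks, which is assumed to vary like the other groups, and age equals batch. It was 0.74 ± 0.27 with an unadjusted p of 0.017 and an adjusted p of 1. The lower position at 15 weeks rested on Tg_15w_3 lying under 0.01 CPM below nTg_15w_2, and on the TPM scale Tg_15w overlapped nTg.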

How the results depend on the processing

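With 9 libraries the number of genes called depended on the fit. In Tg_24w against nTg it was 23 in edgeR, 218 with DESeq2, 238 with voom, 13 and 11 on log2(TPM + 0.5) and log2(TPM + 0.1), 559 with no filter on low counts, 4 within the age's own batch, 107 without both Tg_24w_3 and nTg_24w_1, and 4 to 36 with 1 library left out. In Tg_15w against nTg it was 0 in edgeR (575 at an unadjusted p under 0.05), 2 with DESeq2, 5 with voom and 65 with no filter. In Tg_24w against Tg_15w it was 6 in edgeR, 284 with DESeq2, 305 with voom, 3 on log2(TPM + 0.5), 701 with no filter, 71 without both libraries, and 1 to 14 with 1 library left out. Same-numbered libraries of different groups had correlations of deviations from -0.237 to 0.29. Libraries of different numbers were not compared in this way, so whether the numbers pair libraries was not settled. The replicate block gave 15 calls in Tg_24w against nTg and no member. Of the members' values under the alternatives, 475 kept their direction and side of the threshold, 13 passed it and 42 changed sign. The causes were not tested.

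The members' values that changed sign, and the ranges around them, were these. In Tg_24w against nTg, Nts stood at -0.02 with RLE factors and with DESeq2, -0.16 with voom, -0.08 and -0.09 on TPM, 0.00 with no filter and with the replicate block, -0.15 without both libraries and -0.19 to 0.24 with 1 left out. Tac1 stood at -0.17 with voom, -0.09 and -0.10 on TPM, -0.16 without both and -0.13 to 0.18 with 1 left out. Cck stood at -0.02 with voom, -0.17 without both and -0.08 to 0.25 with 1 left out, Vgf at -0.03 with voom and -0.17 without both, Scg2 at -0.01 on TPM and Npy, 0.64 with all libraries, at -0.09 without both. In Tg_15w against nTg, Scg2 stood at -0.05 with voom, -0.03 without both, -0.10 within the batch and as low as -0.04 with 1 left out. Adcyap1 stood at -0.05 without both, -0.08 within the batch and -0.13 to 0.19 with 1 left out (-0.05 without nTg_24w_1), Vgf at -0.26 to 0.05 with 1 left out (0.02 without nTg_24w_3), and Tac1 and Nts at 0.00 and -0.09 within the batch. In Tg_24w against Tg_15w, Scg2 stood at -0.04 on TPM and -0.05 to 0.07 with 1 left out, and Tac1 at -0.18 to 0.13.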

Other observations

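Several peptide genes were too low to test and are given as reads per library. Pmch, the precursor of melanin-concentrating hormone of the lateral hypothalamus, had 5, 35 and 4 reads in Tg_24w replicates 1, 2 and 3 and 0 to 8 reads elsewhere. The low transcription factors of the hypothalamus Hmx3 and Fezf1 had 6 and 5 reads in Tg_24w_2 and 0 in every other library. Tacr2, the neurokinin A receptor, had 13, 9 and 7 reads in Tg_24w and 1 to 6 in the other 6 libraries. Galp, a galanin relative, had at most 4 reads and Tac4, a further tachykinin gene, at most 3.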
